A study of Mus musculus with 201 samples.

Results

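Arc-positive and Arc-negative cells were compared among 35 whole mouse cells with high Fos mRNA. The 35 cells were drawn from 82 single whole cells in a series of 201 samples. They had a total expected count above 50000 and Fos above 100 TPM, an abundance scaled to transcript length and to the library. Cells with Arc above 1 TPM were called Arc-positive (n = 24) and the others Arc-negative (n = 11). Both Fos and Arc were thus used to choose the cells and are given here as descriptions only. The highest Fos value outside the limit was 75.4 TPM and the lowest inside was 190 TPM. For Arc, the highest value in an Arc-negative cell was 0.53 TPM, with 8 of 11 cells at 0, and the lowest in an Arc-positive cell was 1.01 TPM. The median of the Arc-positive cells was 965 TPM and the highest 3361 TPM.

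The series used single-cell and single-nucleus RNA-seq to study activity-dependent transcription in dentate granule cells (DGCs) of the hippocampus. Whole cells came from Prox1-GFP mice, in which green fluorescent protein marks cells that use the promoter of Prox1, a transcription factor of the granule lineage. The mice had received pentylenetetrazol (PTZ), a GABA-A receptor antagonist that provokes seizures, or saline, and the hippocampus was taken one hour later. Tissue was digested with papain, GFP-positive cells were sorted one per well, and cDNA was made with the Smart-seq2 protocol, with ERCC spike-in RNA added. The study found Fos, Egr1 and Arc mRNA at similar rates in saline and PTZ whole cells and ascribed it to the papain digestion. Whether Fos or Arc mRNA in a given cell preceded the digestion was not tested here. The Arc-positive cells were 9 PTZ and 15 saline cells, and the Arc-negative cells were 5 PTZ and 6 saline cells. Arc-positive cells made up 64.3% of Fos-high PTZ cells and 71.4% of Fos-high saline cells (p = 0.721 by Fisher's exact test, two-sided). A further 33 whole cells over the count limit had Fos at or below 100 TPM (16 PTZ, 17 saline) and are called Fos-low. They served as a reference for cells with low Fos mRNA, and Arc was above 1 TPM in 7 of them. Whether they were at rest was not tested. Per the study's methods, the hippocampi of 2 mice were pooled within each treatment before dissociation, and no label ties a cell to a mouse. All p-values across cells therefore measure the spread among these cells, not among animals, and treatment cannot be told apart from pool.

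Arc and Fos are immediate early genes, which neurons transcribe within minutes of strong synaptic input without needing new protein. Calcium entry activates kinases and phosphatases that act on the transcription factors CREB, SRF and MEF2, and these drive the first wave of genes. Some of these genes encode transcription factors (Fos, Jun, Egr and Nr4a families, Npas4). Others encode effectors, of which Arc is the best known at synapses: its mRNA travels into dendrites, and its protein binds the endocytic machinery and removes AMPA receptors. In the dentate gyrus few granule cells express Arc at any time, and new granule neurons are added in the adult. Cells at different stages of maturation are therefore present in the tissue.

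Total expected counts of the 35 cells ran from 289553 to 5129240. The classes differed in depth. Mean log10 total count was 6.12 ± 0.25 (SD, n = 24) in Arc-positive and 5.90 ± 0.26 (SD, n = 11) in Arc-negative cells (two-sided permutation test, p = 0.0188). Arc-positive cells had 7330 ± 1859 genes above 1 TPM and Arc-negative cells 5172 ± 1383 (two-sided permutation test, p = 0.00217). The difference was 3854 genes among PTZ cells and 971.6 among saline cells. In mean log10 total count it was 0.463 among PTZ cells and 0.057 among saline cells. Of the Arc-positive cells, 4 PTZ cells had more than 10000 genes above 1 TPM. Fos itself also differed between the classes, with a median of 4873 TPM in Arc-positive and 1477 TPM in Arc-negative cells. Gene counts at equal depth and with depth, genes detected or Fos level as a covariate are given with the main counts.

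**Figure D1:**
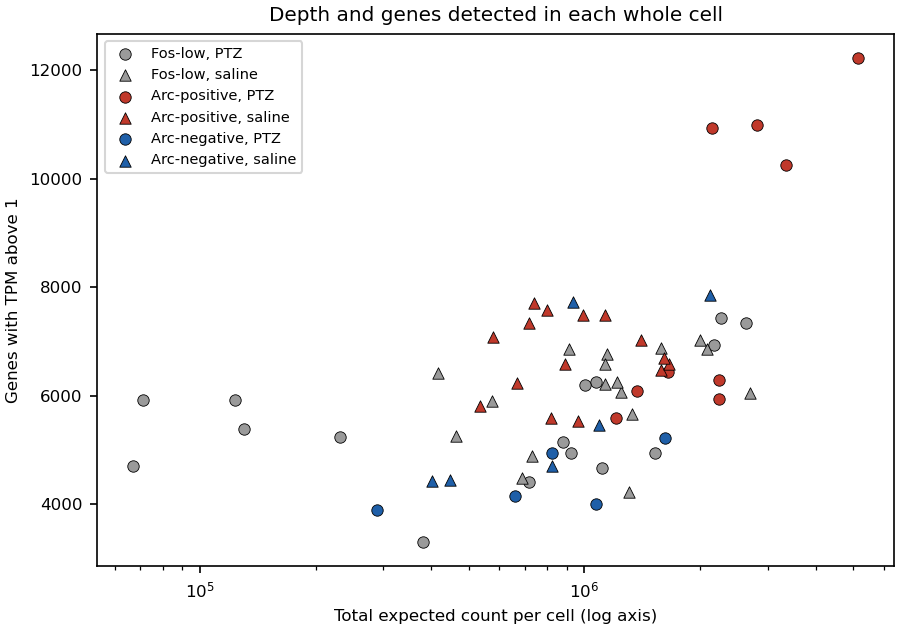
Total expected count per cell (x axis, log scale) against the number of genes above 1 TPM (y axis) for each whole cell, coloured by class and shaped by treatment. Arc-negative cells lie toward fewer genes, and the 4 cells with more than 10000 genes are all Arc-positive PTZ cells.

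The cell type label was checked against markers. Prox1 was above 1 TPM in all 35 cells, but the 11 Arc-negative cells were not uniform. Igfbpl1, an insulin-like growth factor binding protein-like gene of immature neurons, exceeded 100 TPM in 8 of the 35 cells, where it ranged from 184 to 506 TPM. The highest value outside was 44.4 TPM. Of these Igfbpl1-high cells, 6 were Arc-negative (PTZ cells 27, 31 and 35, saline cells 5, 9 and 20), 2 were Arc-positive (PTZ cells 13 and 25) and none of the 33 Fos-low cells qualified. The 2 Arc-positive ones held the lowest Arc values of their class, 1.32 TPM in PTZ cell 13 and 1.01 TPM in PTZ cell 25. This grouping was chosen after the values were seen and carries no test.

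In the Igfbpl1-high cells the mean log2(TPM + 1) of 11 immature granule neuron markers was 5.84 to 6.90, with 7 to 9 of the 11 detected. Their mean over 12 granule cell markers was 1.39 to 3.47. Some Arc-positive cells below the Igfbpl1 limit also held many immature markers: PTZ cell 16 had all 11 with a mean of 5.33, and PTZ cell 28 a mean of 4.40, with Igfbpl1 at 36.3 and 26.5 TPM. Prox1 itself stood at 743 to 2109 TPM in the Igfbpl1-high cells. One further Arc-negative cell, PTZ cell 22, held Gfap at 833 TPM, Slc1a3 at 2588 TPM, Gja1 at 409 TPM and Aldoc at 8159 TPM, which are genes of astrocytes. It had 5 of 8 astrocyte markers and 1 of 6 neuron markers above 1 TPM. The neuron markers summed to 71.2 TPM, with Snap25, Rbfox3 and Slc17a7 at 0, and Camk2a was also at 0. The other 4 Arc-negative cells (PTZ cell 3, saline cells 17, 31 and 39) had granule marker means of 4.41 to 6.46, inside the 4.37 to 6.68 of the other 22 Arc-positive cells. Of these, PTZ cell 3 had the lowest total of the 35 cells (289553 counts). It held 0 of the 11 immature markers above 1 TPM. So 7 of 11 Arc-negative cells, against 2 of 24 Arc-positive cells, carried one of these marker patterns. Main results are given with and without these 9 cells.

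**Figure D2:**
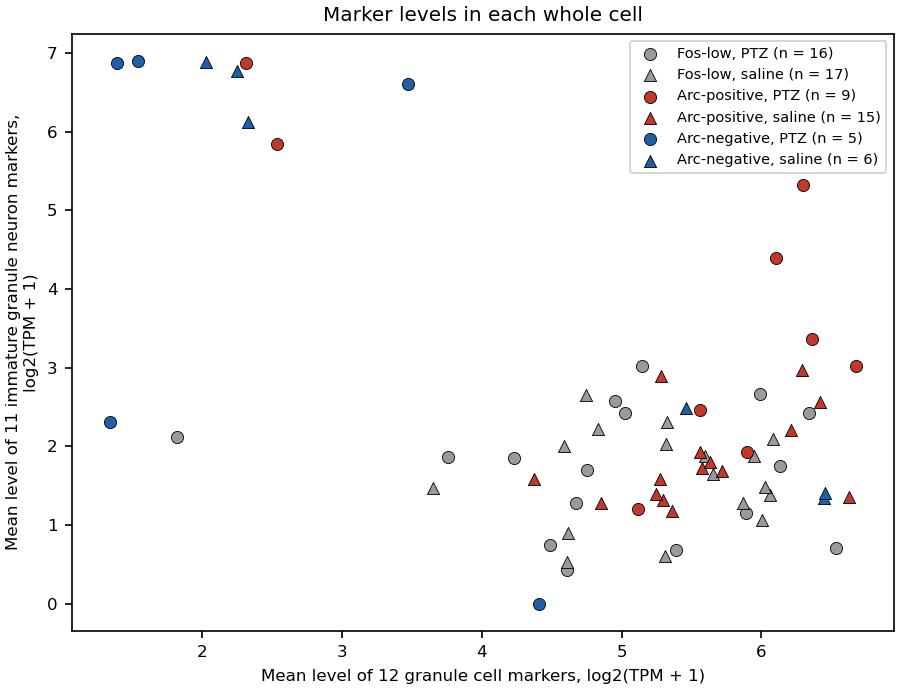
Mean log2(TPM + 1) of 12 granule cell markers (x axis) against that of 11 immature granule neuron markers (y axis), one point per whole cell, coloured by class and shaped by treatment. The Igfbpl1-high cells lie at the top left with immature means of 5.84 or more. The 4 Arc-negative cells without a marker pattern lie within the granule marker range of the Arc-positive cells. One of them, PTZ cell 3, has an immature mean of 0, below every Arc-positive cell (lowest 1.18).

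Across 9229 genes, edgeR's quasi-likelihood test with treatment as a covariate called 208 genes (2.25%) at a Benjamini-Hochberg adjusted p under 0.05. Of these, 187 (2.03%) were higher and 21 (0.228%) lower in Arc-positive cells, and the median log2 fold change of all genes was 0.42. The split depended on the filter on low counts, which keeps genes seen in at least 9 of the 35 cells. With no filter, 1334 genes were higher and 808 lower. In 149 of the 187 higher genes, every Arc-negative cell held 3 counts or fewer. These genes passed the low-count filter through Arc-positive cells alone, whereas a gene confined to Arc-negative cells would need 9 of the 11. Their p-values are therefore descriptive, and so are those of genes given below with a lower bound on the fold change. Egr4, Spry2, Ankrd33b and Rgs4 were detected in 4 or fewer of the 11 Arc-negative cells and likewise needed Arc-positive cells to pass. The p-values of these genes are descriptive too. A limma test on log2(TPM + 1) called 705 genes (7.64%), of which 694 (7.52%) were higher and 11 (0.119%) lower, with a median difference of 0.92 over all genes. Both tests called 72 genes in the same direction (0.780%). No gene had TPM values that did not overlap between the classes. When counts were summed per treatment pool and class, leaving 2 sums against 2, edgeR called 0 genes, with 205 at an unadjusted p under 0.05.

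The number of calls depended on which cells entered. Leaving out 1 Arc-negative cell raised it to 439 (saline cell 39) or 366 (saline cell 31). Without the 9 cells (22 against 4), edgeR called 4 genes (0.0433%) and limma 39 (0.423%), sharing 3 of the 208 and 25 of the 705 calls. The limma calls were 37 higher (0.401%) and 2 lower (0.0217%). The edgeR calls were Egr4, the 1 higher gene (0.0108%), and 3 lower genes (0.0325%), Osbpl11, Tbc1d16 and Snhg7. The last 3 are named after their values were seen. Without the 4 cells of more than 10000 genes, edgeR called 19 genes (0.206%) and limma 222 (2.41%). With the number of genes detected as a covariate edgeR called 71 genes, with log10 total count 146, and with Fos level 136. With every cell thinned to 289546 counts, a setting chosen after seeing the data, edgeR called 272 genes (240 higher), including 203 of the 208.

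The first-wave transcription factors and related regulators formed the first list. It held 28 genes, of which 22 had enough counts to be tested. The mean log2(TPM + 1) over the 28 was 4.73 ± 0.98 (SD, n = 24) in Arc-positive cells, 2.38 ± 0.97 (SD, n = 11) in Arc-negative cells and 0.92 ± 0.49 (SD, n = 33) in Fos-low cells. By cell, 11 to 25 of the 28 genes were above 1 TPM in Arc-positive cells and 4 to 17 in Arc-negative cells. edgeR called 6 of 22 higher (Egr2, Egr4, Fosl2, Junb, Klf2, Btg2) and limma 12 (Junb, Egr4, Npas4, Btg2, Nr4a2, Egr2, Jun, Nr4a1, Fosb, Egr1, Nfil3, Fosl2), with none lower. Of all genes, edgeR called 2.03% higher and limma 7.52%. The median log2 difference over the 22 was 2.35 by edgeR and 2.84 by limma, against 0.42 and 0.92 over all genes. Without the 9 cells, limma called 7 of the 22 (Egr4, Fosb, Btg2, Egr1, Nr4a2, Nr4a1, Junb), against 0.401% of all genes. The median was then 2.93 against 0.60 over all genes. The 4 Arc-negative cells left had Fos at 3600 TPM (PTZ cell 3), 488, 1477 and 837 TPM (saline cells 17, 31 and 39). Median Fos was higher in Arc-positive cells, as given above, and Fos level was not a covariate in this fit.

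Many immediate early genes carry a cAMP response element (CRE) near their start, the site that CREB binds. The promoter windows of 4 genes of this list are shown as examples of the 7 genes that limma called higher with and without the 9 cells. Of the 7, 6 were matched to a window. All 6 held the core letters TGACG or CGTCA, and 1 held the full CRE palindrome TGACGTCA. The 4 shown were picked after the values were seen. The windows run from 250 bases before to 50 after the start (RefSeq, GRCm38.p6, 5′ to 3′ on the gene's strand), and capitals mark the core letters TGACG or CGTCA, read on both strands.
Egr4, chr6:85513540-85513839, minus strand: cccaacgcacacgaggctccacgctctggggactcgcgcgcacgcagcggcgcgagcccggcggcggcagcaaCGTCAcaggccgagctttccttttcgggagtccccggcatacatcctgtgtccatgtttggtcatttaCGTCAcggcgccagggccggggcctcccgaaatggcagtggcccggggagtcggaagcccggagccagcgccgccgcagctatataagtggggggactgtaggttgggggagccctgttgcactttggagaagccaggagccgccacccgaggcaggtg
Junb, chr8:84978699-84978998, minus strand: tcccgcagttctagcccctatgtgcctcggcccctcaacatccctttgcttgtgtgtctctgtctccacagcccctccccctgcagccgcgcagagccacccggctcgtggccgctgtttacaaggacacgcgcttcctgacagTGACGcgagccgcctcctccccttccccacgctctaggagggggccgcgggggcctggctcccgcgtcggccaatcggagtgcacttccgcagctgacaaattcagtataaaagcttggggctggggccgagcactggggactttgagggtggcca
Btg2, chr1:134079106-134079405, minus strand: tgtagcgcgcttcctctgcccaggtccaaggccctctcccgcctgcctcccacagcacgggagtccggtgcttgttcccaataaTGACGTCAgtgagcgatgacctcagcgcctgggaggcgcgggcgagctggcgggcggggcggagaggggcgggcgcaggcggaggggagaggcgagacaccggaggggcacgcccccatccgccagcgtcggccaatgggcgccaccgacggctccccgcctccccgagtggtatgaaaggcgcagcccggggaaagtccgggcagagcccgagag
Nr4a2, chr2:57123954-57124253, minus strand: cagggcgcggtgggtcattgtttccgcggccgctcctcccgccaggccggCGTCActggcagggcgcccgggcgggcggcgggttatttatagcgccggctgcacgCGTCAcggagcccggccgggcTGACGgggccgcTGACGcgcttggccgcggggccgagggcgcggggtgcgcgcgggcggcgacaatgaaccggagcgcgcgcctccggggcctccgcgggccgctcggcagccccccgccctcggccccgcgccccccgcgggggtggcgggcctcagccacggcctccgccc

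Counted from the start, the cores begin at -177 and -109 in Egr4, at -106 in Junb and at -200, -144, -123 and -111 in Nr4a2. Btg2 holds the full palindrome TGACGTCA at -166, which contains both of its cores. A core was present in at least 1 window of 23.0% of 27025 genes and the full palindrome in 2.03%. Of the list's tested genes, 17 were matched to a window, and 12 held a core and 1 the palindrome. The motif was searched for after the gene results were known. A match describes these letters and not binding.

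Egr4, a zinc finger transcription factor (GRCm38 chr6:85511121-85513589), was the one member called higher by both tests with and without the 9 cells. It passed the low-count filter largely through Arc-positive cells, so its p-values are descriptive. It ranged from 0 to 726 TPM in Arc-positive cells with a median of 235 TPM and 21 of 24 cells detected. In the 11 Arc-negative cells it was 14.8 TPM in PTZ cell 27, 10.0 TPM in saline cell 5, 4.16 TPM in saline cell 39, 2.58 TPM in saline cell 31 and 0 in the rest. Thus 21 Arc-positive cells lay above every Arc-negative cell, and the overlap came from the other 3. Of those 3, PTZ cells 13 and 25 were the Igfbpl1-high Arc-positive cells, both at 0. The log2 fold change was 6.39 ± 1.16 (SE, edgeR adjusted p = 0.00347), and 5.57 ± 0.90 by limma (adjusted p = 5.26e-05). Without the 9 cells it was 7.0 ± 1.3 (edgeR adjusted p = 0.0176). With Fos level as a covariate the edgeR adjusted p of Egr4 was 0.101, and among PTZ cells alone it was 0.068. In the summed counts Egr4 was 59.7-fold higher in PTZ and 61.2-fold higher in saline Arc-positive cells.

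Egr2, its relative (chr10:67535475-67542188), was above 1 TPM in 17 of 24 Arc-positive cells, with a median of 85.7 TPM and a highest value of 1139 TPM. It was at 0 in all 11 Arc-negative cells and above 1 TPM in 4 of 33 Fos-low cells. Measured against a floor of 3 counts in each Arc-negative cell, Egr2 was at least 59.4-fold higher (edgeR adjusted p = 0.00283, limma adjusted p = 0.00185). Egr2 passed the low-count filter through Arc-positive cells alone, so these p-values are descriptive. The remaining 7 Arc-positive cells had no Egr2 either, so a lack of Egr2 did not by itself mark the Arc-negative class. Egr1, the founding member of the family, was detected in all 24 Arc-positive cells (19.4 to 3515 TPM, median 1401 TPM) and in 10 of 11 Arc-negative cells (0 to 1778 TPM, median 228 TPM). Its classes overlapped widely, with a limma difference of 2.99 ± 0.76 (adjusted p = 0.00843) and an edgeR adjusted p of 0.22. Egr3 did not pass either test (median 34.9 against 0 TPM, edgeR adjusted p = 0.70, limma adjusted p = 0.0867).

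Junb, a partner of Fos in the AP-1 complex (chr8:84974484-84978718), ranged from 163 to 6748 TPM in Arc-positive cells with a median of 2734 TPM. In Arc-negative cells it ranged from 0 to 1509 TPM with a median of 202 TPM, and in Fos-low cells the median was 3.45 TPM. Junb was thus present in nearly all Fos-high cells and differed in amount, with 17 Arc-positive cells above every Arc-negative cell. The log2 fold change was 3.08 ± 0.73 (edgeR adjusted p = 0.0240), and without the 9 cells limma gave 3.03 ± 0.66 (adjusted p = 0.0373). Fosb had medians of 502 and 78.3 TPM (limma adjusted p = 0.00507, edgeR adjusted p = 0.0924). Fosl2 was above 1 TPM in 15 Arc-positive cells and at 0 in all Arc-negative cells, at least 10.5-fold higher (edgeR adjusted p = 0.0135). Jun differed by limma (3.58 ± 0.77, adjusted p = 0.0019) but not by edgeR (adjusted p = 0.787). Jun was also the member with a clear Fos-low level (median 92.4 TPM), and the Arc-negative cells reached 2113 TPM in PTZ cell 22.

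Btg2, an antiproliferative immediate early gene (chr1:134075170-134079120), had a median of 1773 TPM in Arc-positive cells (0.98 to 4236 TPM) and 216 TPM in Arc-negative cells (0.91 to 580.4 TPM). Here 20 Arc-positive cells exceeded every Arc-negative cell, and the log2 fold change was 3.02 ± 0.74 (edgeR adjusted p = 0.0240). Among the 4 Arc-negative cells without the marker patterns Btg2 was 34.5 to 531 TPM, against 193 to 4236 TPM in the 22 Arc-positive cells (limma adjusted p = 0.00849). Klf2, a Krüppel-like factor, was seen in 11 Arc-positive cells and no Arc-negative cell, at least 15.5-fold higher (edgeR adjusted p = 0.0240), but 1 cell held 68.2% of its counts and limma did not call it (adjusted p = 0.0631).

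Npas4, a transcription factor induced selectively by depolarization and calcium entry, was at 1154 TPM (median) in Arc-positive cells, with 22 of 24 detected. In Arc-negative cells it was 603 TPM in saline cell 31, 206 TPM in PTZ cell 27, 43.3 TPM in saline cell 17, 22.9 TPM in PTZ cell 3 and below 4 TPM in the rest. The classes overlapped, with a limma difference of 5.93 ± 1.00 (adjusted p = 8.88e-05) and an edgeR log2 fold change of 4.02 ± 1.22 (adjusted p = 0.0808). Among the orphan nuclear receptors, Nr4a1 had medians of 1155 and 197 TPM (limma adjusted p = 0.00365, edgeR adjusted p = 0.0636) and Nr4a2 of 159 and 0.79 TPM (limma adjusted p = 0.00101, edgeR adjusted p = 0.153). Nr4a3 did not pass (169 against 51.1 TPM, limma adjusted p = 0.102), and in the PTZ cells alone its fitted value was below 0. Ier2 had a median of 28.4 TPM in Arc-positive and 9.29 TPM in Arc-negative cells and passed neither test. Its highest value, 1442 TPM, was in the Arc-negative saline cell 20. Atf3 was too sparse to test, in 8 Arc-positive and 2 Arc-negative cells.

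**Figure D3:**
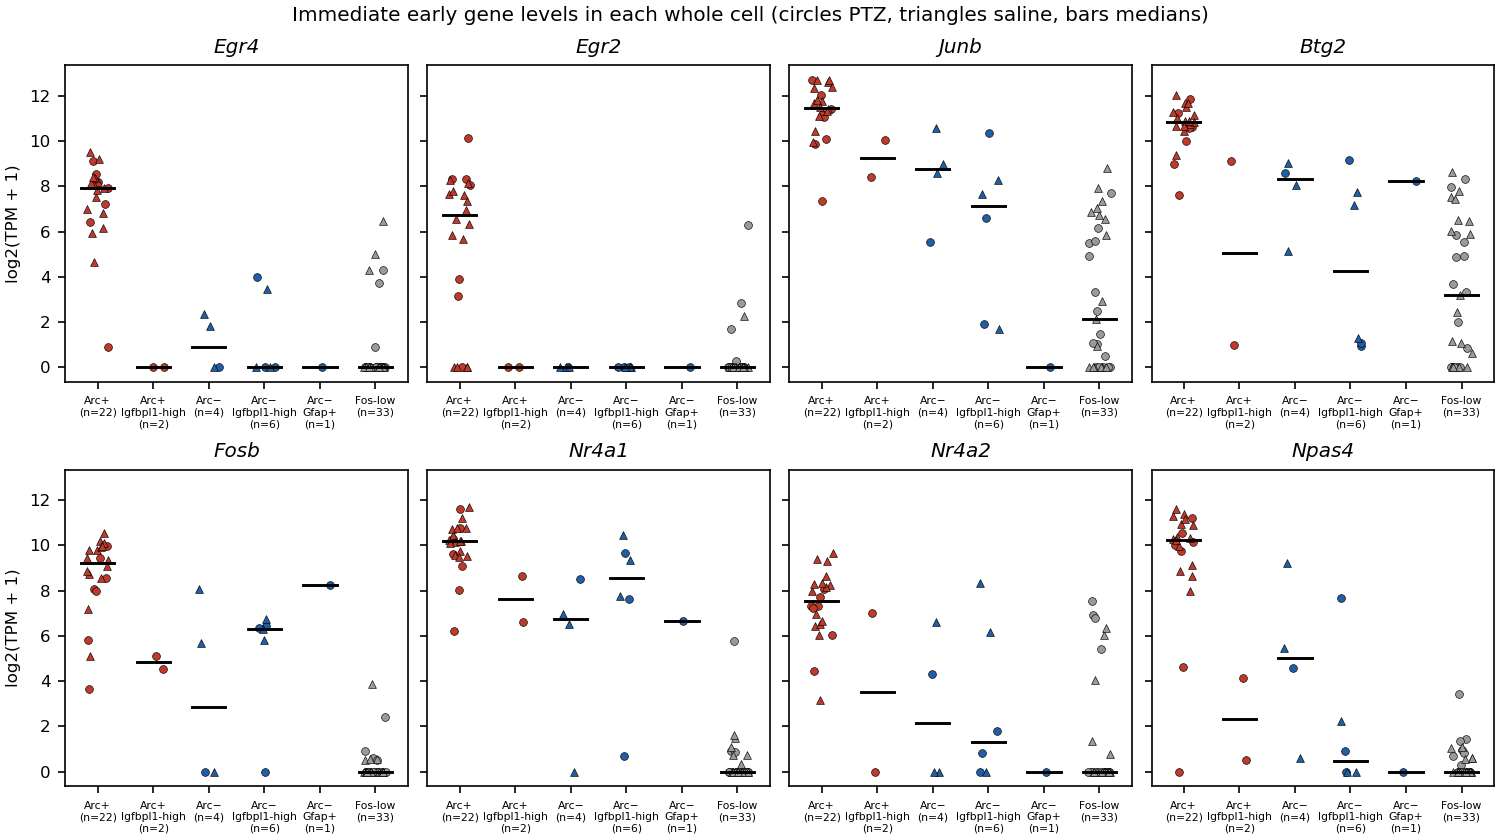
Level of 8 immediate early genes, log2(TPM + 1) on the y axis, in each whole cell, with the Arc-positive and Arc-negative cells split by whether they carried the Igfbpl1 or Gfap marker pattern and the Fos-low cells alongside. Egr2 is at 0 in all 11 Arc-negative cells, and Egr4 exceeds 14.8 TPM in 21 of 24 Arc-positive cells.

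The 37 activity-induced effectors include secreted factors, kinases, phosphatases and signalling inhibitors, and 26 were tested. edgeR called 2 higher (Trib1, Rgs4) and limma 11 (Scg2, Nrn1, Spry2, Trib1, Bdnf, Rgs4, Errfi1, Synpo, Rgs2, Dusp1, Sgk1). None was lower. The calls were 7.69% of the 26 by edgeR and 42.3% by limma, against 2.03% and 7.52% of all genes. Median log2 differences were 1.91 by edgeR and 2.87 by limma, against 0.42 and 0.92 over all genes. Without the 9 cells limma called 1 (Spry2), 3.85% against 0.401% of all genes. The median was then 2.04 against 0.60 over all genes.

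Trib1, a pseudokinase that tunes MAPK signalling, was above 1 TPM in 18 Arc-positive cells (median 23.3 TPM, highest 565 TPM). No Arc-negative cell exceeded 0.62 TPM, and 2 of 33 Fos-low cells exceeded 1 TPM. It was at least 42.4-fold higher (edgeR adjusted p = 0.00218). Spry2, an inhibitor of receptor tyrosine kinase signalling, was detected in 22 Arc-positive and 3 Arc-negative cells (medians 53.8 and 0 TPM). Its limma difference was 4.10 ± 0.89 (adjusted p = 0.00203) and its edgeR adjusted p 0.104. All 4 Arc-negative cells without the marker patterns had Spry2 at 0, and the limma adjusted p without the 9 cells was 0.0336. Like those of Egr4, the p-values of Spry2 are descriptive. Rgs4, a regulator of G protein signalling, had medians of 104 and 0 TPM (edgeR adjusted p = 0.0498), but was called in 13 of 35 fits that each left out 1 cell.

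Bdnf, which encodes a neurotrophin, had a median of 118 TPM (0 to 394 TPM) in Arc-positive and 8.21 TPM (0 to 80.4 TPM) in Arc-negative cells. The Fos-low cells stood between, at 54.9 TPM with 27 of 33 detected. The limma difference was 3.78 ± 0.87 (adjusted p = 0.00365), and edgeR did not call it (adjusted p = 0.0559). Scg2, a precursor of secreted neuropeptides, and Nrn1, a membrane-anchored growth factor, followed another pattern. Scg2 had medians of 853 TPM in Arc-positive, 1.18 TPM in Arc-negative and 545 TPM in Fos-low cells (limma adjusted p = 1.31e-05). In the 4 Arc-negative cells without the marker patterns its median was 892 TPM, against 957 TPM in the 22 Arc-positive cells. Nrn1 likewise had medians of 582 and 647 TPM in those cells. For Scg2, PTZ cell 3 of the 4 was at 82.6 TPM, below the lowest of the 22 (221 TPM).

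Several members passed neither test. Plk2, a kinase of synaptic scaling, had medians of 1264 and 281 TPM (edgeR adjusted p = 0.0527, limma adjusted p = 0.117). Homer1 (9.60 against 0 TPM), Vgf (9.77 against 0 TPM) and Nptx2 (0 in both medians, 9 and 1 cells detected) also did not pass. Dusp1, a MAPK phosphatase, was called by limma alone (adjusted p = 0.0350), with medians of 176 and 0 TPM. Ptgs2 was in 4 Arc-positive and no Arc-negative cells and was not tested.

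Genes upstream of the immediate early response were examined next. Of 40 genes that carry calcium signals to CREB and SRF, 35 were tested and edgeR called 1 higher, Crtc2, a CREB coactivator, in 13 Arc-positive and no Arc-negative cells (at least 6.61-fold, adjusted p = 0.0240). limma called 14 higher, among them Ppp3ca, the calcineurin catalytic subunit, and Camk2a, the kinase of the postsynaptic density. The calls were 2.86% of the 35 by edgeR and 40% by limma, against 2.03% and 7.52% of all genes. Camk2a ranged from 164 to 1943 TPM in Arc-positive cells (median 994 TPM) and from 0 to 2138 TPM in Arc-negative cells (median 3.04 TPM), and the Fos-low median was 865 TPM. Its limma difference of 4.99 ± 0.84 (adjusted p = 8.88e-05) came with an edgeR adjusted p of 0.688. In the 4 Arc-negative cells without the marker patterns the median was 1063 TPM, against 1030 TPM in the 22 Arc-positive cells. Without the 9 cells limma called 0 of the 35 (edgeR also 0), and the list median fell from 1.63 to 0.38, below the 0.60 of all genes. Creb1 itself had medians of 8.22 TPM in Arc-positive and 17.6 TPM in Arc-negative cells and was not called.

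Receptors were the next group. Of 18 tested glutamate receptors and calcium channels, edgeR called 0 and limma 4 higher, among them Grin1, Gria1 and Grin2a, none of them without the 9 cells. The limma calls were 22.2% of the 18, against 7.52% of all genes. The limma list median went from 1.76 to 0.44. Of 9 tested GABA-A receptor subunits, edgeR called 0 and limma 6, among them Gabrb1, Gabra4, Gabrb2 and Gabra2, again none without the 9 cells. The limma calls were 66.7% of the 9, against 7.52% of all genes. The limma median was 3.34 and then 1.78, above that of all genes. The edgeR median instead went from 1.68 to 0.13, below the 0.38 of all genes without the 9 cells. Gabra4, a subunit of extrasynaptic receptors in granule cells, had medians of 122 TPM in Arc-positive, 0.39 TPM in Arc-negative and 303 TPM in Fos-low cells.

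Markers of neurons moved with these genes. Of 6 neuron markers limma called 4 higher (Slc17a7, Snap25, Syt1, Rbfox3) and edgeR 0, and none was called without the 9 cells. The limma calls were 66.7% of the 6, against 7.52% of all genes. Snap25, a vesicle fusion protein, had medians of 2564 and 355 TPM over all cells, and of 2591 and 2271 TPM without the 9 cells. In PTZ cell 3, one of the 4 Arc-negative cells left, Snap25 was at 355 TPM. Of 12 granule cell markers limma called Calb1 and C1ql2 (16.7%, against 7.52% of all genes), and edgeR 0. Calb1, a calcium buffer of mature granule cells, was at most 0.96 TPM in the 8 Igfbpl1-high cells, whereas its medians without the 9 cells were 256 TPM in Arc-positive and 285 TPM in Arc-negative cells. Prox1 was not called (log2 fold change -0.44 ± 0.33, edgeR adjusted p = 0.804), with medians of 453 and 743 TPM. Gad1, a GABA-synthesizing enzyme, was detected in 23 Arc-positive and 6 Arc-negative cells and was called by limma alone (adjusted p = 0.0196).

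**Figure D4:**
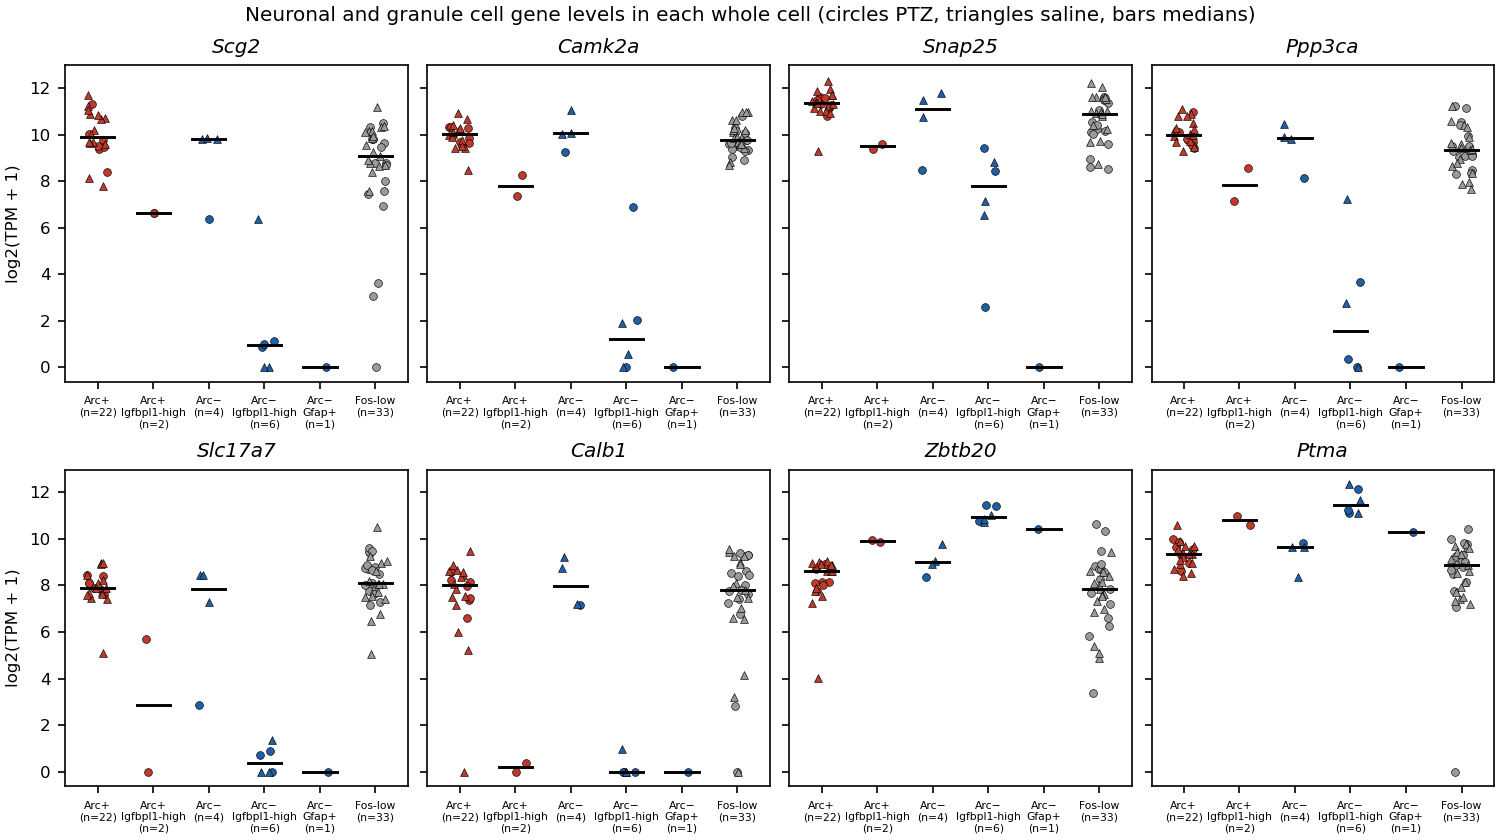
Level of neuronal and granule cell genes and of Zbtb20 and Ptma, log2(TPM + 1) on the y axis, in each whole cell, in the same groups of cells. Medians of Scg2, Camk2a and Snap25 are similar in Arc-positive, Fos-low and the 4 Arc-negative cells without a marker pattern. One of the 4, PTZ cell 3, is lower, with Scg2 at 82.6 TPM and Snap25 at 355 TPM. Zbtb20 and Ptma are higher in the Igfbpl1-high cells.

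Of 14 tested genes whose products act with Arc protein, edgeR called 1, Ap2m1, a subunit of the AP-2 clathrin adaptor, with a median of 671 TPM (421 to 1157 TPM) in Arc-positive and 429 TPM (132 to 739 TPM) in Arc-negative cells. Its log2 fold change was 1.05 ± 0.30 (edgeR adjusted p = 0.0476), limma gave an adjusted p of 0.0951, and it was called in 9 of 35 fits that each left out 1 cell. limma called Dnm1, the neuronal dynamin (120.3 against 0.99 TPM, adjusted p = 0.00548). Each test called 1 of the 14 (7.14%), against 2.03% of all genes by edgeR and 7.52% by limma. The list median was 0.74 by edgeR and 1.04 by limma, against 0.42 and 0.92 over all genes. Without the 9 cells neither test called a member.

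Heat shock and stress genes were examined because the cells were digested enzymatically. Of 13 tested, edgeR called Hspa1a, an inducible chaperone, in 11 Arc-positive and no Arc-negative cells (at least 32.7-fold). One cell held 69.9% of its counts, and reads of Hspa1a and its near-identical copy Hspa1b could be assigned to either. limma called Hsph1 alone (adjusted p = 0.0410). Each test thus called 7.69% of the 13, against 2.03% of all genes by edgeR and 7.52% by limma. The list median was 0.31 by edgeR, below that of all genes.

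A list from the nuclei of the same series was also examined. Nuclei of mice exposed to an unfamiliar environment had been sorted on FOS protein (40 FOS-positive, 41 FOS-negative). The 50 genes with the smallest p, Fos and Arc aside, were taken from 203 genes called higher in FOS-positive nuclei (3.99% of 5094 tested). In the whole cells 36 of them were tested. edgeR called 2 higher, Ankrd33b and Etv3 (2.03% of all genes were), and limma 8, including Baiap2, Nr4a2, Spry2 and Bdnf (7.52% of all genes). The median was 1.19 by edgeR and 1.63 by limma, against 0.42 and 0.92 over all genes. Without the 9 cells edgeR called 0 and limma 2 (Nr4a2, Spry2), with a limma median of 1.00 against 0.60. Nr4a2, Spry2, Bdnf and Sgk1, all called by limma, also belonged to the lists above, so these calls repeat ones already given. Ankrd33b, an ankyrin repeat gene, was detected in 20 Arc-positive and 2 Arc-negative cells (medians 28.2 and 0 TPM, edgeR adjusted p = 0.0245). Etv3, an ETS-family repressor, was detected in 9 Arc-positive and no Arc-negative cells, at least 7.5-fold higher (edgeR adjusted p = 0.0264). Of 7 nuclear long noncoding RNAs 5 were tested, and Rian was called by limma alone (20%, against 7.52% of all genes).

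Apart from the immediate early genes, the higher genes with the smallest p-values included Rapgef5, Gga1, Zkscan6, Tmem184b, M5C1000I18Rik and Kcnf1. Rapgef5, an exchange factor for Ras-family GTPases, was detected in 19 Arc-positive and 1 Arc-negative cells (at least 17.9-fold, edgeR adjusted p = 0.00347). Kcnf1, a modifier subunit of potassium channels, was above 1 TPM in 13 and 0 cells (at least 23.0-fold, adjusted p = 0.0135). Rapgef5 was also above 1 TPM in 25 of 33 Fos-low cells and M5C1000I18Rik in 14 of 33, against 5 of 33 for Egr4.

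Several genes lower in Arc-positive cells were highest in the Igfbpl1-high cells. Igfbpl1 itself (log2 fold change -7.09 ± 1.66, edgeR adjusted p = 0.0240, limma adjusted p = 0.0329) was the only one of 7 tested immature markers called, and it also defined the marker pattern. That call was 14.3% of the 7, against 0.228% of all genes called lower by edgeR. The median over the 7 was -2.73 by edgeR. Zbtb20, a zinc finger repressor of hippocampal development (chr16:42875881-43642602), was expressed in every cell. It ranged from 15.4 to 1004 TPM in Arc-positive cells (median 395 TPM) and from 326 to 2818 TPM in Arc-negative cells (median 1709 TPM), a log2 fold change of -1.29 ± 0.31 (edgeR adjusted p = 0.0240). Its range was 930 to 2818 TPM in the Igfbpl1-high cells, 326 to 875 TPM in the 4 Arc-negative cells without a marker pattern and 15.4 to 523 TPM in the 22 other Arc-positive cells. Ptma, a chromatin-associated protein of growing cells, had medians of 661 and 2225 TPM (-1.15 ± 0.32, edgeR adjusted p = 0.0417). It was called in 16 of 35 fits that each left out 1 cell.

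Cd24a, a surface glycoprotein of young neurons, was at 136 to 2715 TPM in the 6 Arc-negative Igfbpl1-high cells and at 0 in the other 5 Arc-negative cells. The fitted differences of Cd24a, Igfbpl1, Ddah2, Fnbp1l and Ttc28 changed sign without the 9 cells. Ddah2, Mtss1, Fnbp1l and Ttc28 were each detected in 5 to 7 Arc-negative cells, with edgeR adjusted p-values between 0.0184 and 0.0362. Dynlt1b, a dynein light chain, had a median of 0 TPM in Arc-positive and 410 TPM in Arc-negative cells (-7.12 ± 1.5, edgeR adjusted p = 0.0135), and its neighbour Dynlt1c had medians of 1.61 and 84.4 TPM (adjusted p = 0.0492). These copies are nearly identical, and how reads were split between them is uncertain. Bok, an apoptosis regulator also listed as a CA pyramidal marker, was called lower by edgeR alone (adjusted p = 0.0263, limma 0.499).

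**Figure D5:**
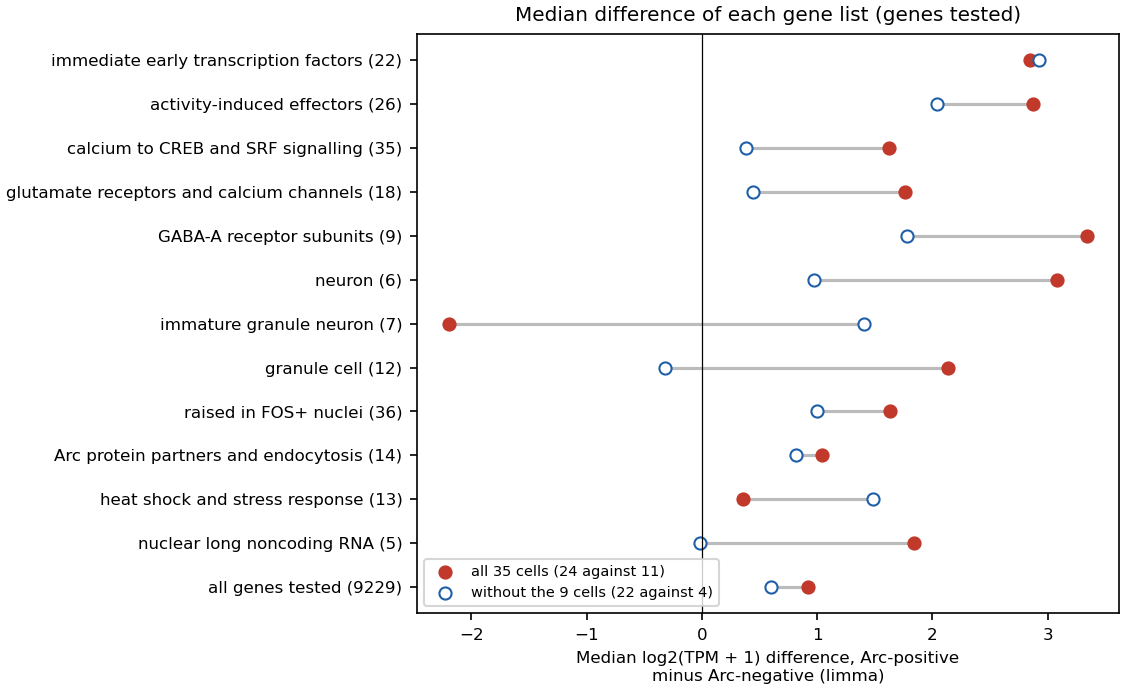
Median log2(TPM + 1) difference, Arc-positive minus Arc-negative, over the tested genes of each list (limma), with all 35 cells as filled points and without the 9 marker cells as open points. The immediate early transcription factors stay near 2.9 (2.84 and 2.93), while calcium signalling goes from 1.63 to 0.38 and granule cell markers from 2.14 to -0.32.

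The classes were also compared within each treatment. In edgeR, 73 genes were called among PTZ cells (72 higher) and 25 among saline cells (9 higher). Of the 208 genes called in all cells, 1 was among the PTZ calls and 20 were among the saline calls. A test of the difference between treatments called 71 genes by edgeR (0.769%) and 14 by limma (0.152%), 4 by both, and 68 of the 71 had the larger Arc-positive excess in PTZ cells. Nlgn3, a postsynaptic adhesion protein, led that list, with a difference in mean log2(TPM + 1) of 6.91 among PTZ cells and -0.96 among saline cells (edgeR adjusted p = 5.86e-05). It was chosen by its p-value after the fit. It was detected in all 9 Arc-positive and none of the 5 Arc-negative PTZ cells, and in all 21 saline cells. The 5 Arc-negative PTZ cells included the Gfap-positive cell and 3 Igfbpl1-high cells, and their part in this difference was not tested. Among the immediate early genes described above, Egr4 differed by 4.58 among PTZ and 6.31 among saline cells, Junb by 5.45 and 4.06, and Btg2 by 3.40 and 4.57 in mean log2(TPM + 1). Of the 22 tested members of that list, 4 were not higher in both treatments: Ier5 was -0.83 among PTZ and -1.10 among saline cells, Ier2 0.88 and -0.45, Klf4 -0.46 and 1.86, and Crem 3.98 and -0.75.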

How the data were processed

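Single whole cells were profiled by Smart-seq2. Expected counts per gene were estimated by the authors with RSEM and Bowtie 1.0.0 on mm10 (submitters' processing notes), and the authors also deposited TPM, which is scaled by transcript length and library. Groups came from the labels; the class limits are total expected count above 50000, Fos above 100 TPM and Arc above 1 TPM. The deposited expected counts were rounded, and genes with a count of at least 5 in at least 9 of the 35 cells were kept, leaving 9229 after Fos and Arc were set aside.

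edgeR 4.0.16 (R 4.3.3) fitted class and treatment with TMM factors and the robust quasi-likelihood test. limma 3.58.1 was run on log2(TPM + 1) with the pseudocount of 1, which understates changes of low genes. p-values were adjusted by Benjamini-Hochberg over all genes tested, with a threshold of 0.05. Cell measures were compared by permutation of class within treatment (100000 resamples, SciPy 1.17.1). Where every Arc-negative cell held 3 counts or fewer, a lower bound replaces the fold change, with 3 counts taken for each Arc-negative cell. The scripts were tested on simulated data. Smart-seq2 reads carry no molecular identifiers, so counts are not independent molecules.

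The members, the gene lists and the tests were chosen with earlier results of these data known. Named genes were a set of 24 always reported, the 10 genes with the smallest edgeR p in each direction (same sign in both treatments, above 1 TPM in at least 10 cells, no cell with over 50% of the counts of its class) and up to 6 called members per list. Lists were immediate early transcription factors, effectors, calcium signalling, glutamate and GABA-A receptors, Arc partners, heat shock genes, cell type markers, nuclear long noncoding RNAs and the nuclei list. Of the markers of other cells, 1 gene each was tested for oligodendrocytes, astrocytes, microglia and interneurons and none for endothelial cells, and of these Gad1 alone was called, by limma. The mitochondrial genes were not analysed here, and a few genes that the naming rule chose are not reported here. Coordinates are from GENCODE vM21 (GRCm38), which matched 96.4% of the tested genes. Alternatives included DESeq2 1.42.0, other filters and scalings, added covariates and leaving out each cell.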

Additional observations from a re-analysis of the deposited data

Results flagged for a closer look

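The astrocyte markers singled out 1 cell of the Arc-negative PTZ group. In PTZ cell 22 their mean log2(TPM + 1) was 6.52, and the gap to the next of the 5 cells took up 0.753 of the group's range, above Dixon's limit for 5 samples. Of 24 groups examined in this way, chance flags about 1 in 20. This cell held Gfap at 833 TPM, and without it edgeR called 243 genes between the classes.

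The difference between the classes itself differed between treatments for 71 genes (edgeR, test of the interaction). Of these, 68 had the larger Arc-positive excess among PTZ cells, and 4 were also called by limma. The 5 Arc-negative PTZ cells included the Gfap-positive cell and 3 Igfbpl1-high cells. The interaction was not tested without these cells. After Nlgn3 the smallest p-values belonged to Cx3cl1 (mean log2 difference 7.29 among PTZ and 3.92 among saline cells), Nckap1 (6.30 and 2.30) and Gabra4 (6.17 and 1.80), all with edgeR adjusted p-values under 0.05 and limma adjusted p-values of 0.351, 0.335 and 0.308.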

How the results depend on the processing

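The number of genes called between the classes (208) ranged from 188 to 439 when each cell was left out in turn, the highest without saline cell 39 and the next, 366, without saline cell 31. edgeR called 2142 genes with no filter on low counts, 979 when a gene needed a count above 0 in only 5 cells, 71 with genes detected added, 136 with Fos level added, 131 with the Fos limit at 10 TPM, 73 in PTZ cells, 25 in saline cells and 0 in sums per pool and class. DESeq2's Wald test called 391, limma 705 and limma with a pseudocount of 0.1 called 865. edgeR called 200 with DESeq2's size factors in place of TMM, which moved the median log2 fold change of all genes from 0.42 to 0.12. The others were chosen after seeing the data: without the 9 marker cells edgeR called 4 and limma 39, with the immature marker level added 101 and 335, and without the 4 cells of over 10000 genes edgeR called 19. The interaction count was 14 by limma. The cause of these changes was not tested. With 4 Arc-negative cells left, fewer calls can also follow from fewer cells. At equal depth edgeR called 272. A gene at 0 in a cell may be below that cell's depth.

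Among the named genes these values changed sign. Among PTZ cells alone the log2 fold changes were Nr4a3 -0.31, Vgf -0.88, Prox1 0.043 and Fnbp1l 0.071, and among saline cells Homer1 -0.14. Homer1 was -1.0 with genes detected added and Prox1 0.020 with Fos level added. Ier2 was 0.12 by limma, 0.16 with the 0.1 pseudocount and -1.39 to 0.94 when single cells were left out. Without the 9 marker cells edgeR gave Ier2 9.12, Prox1 0.87, Ddah2 3.05, Igfbpl1 3.32, Cd24a 5.66, Fnbp1l 2.86 and Ttc28 4.52, and limma gave Ier2 3.27, Prox1 0.90, Gad1 -0.52, Ddah2 0.70, Igfbpl1 0.52, Cd24a 0.96, Fnbp1l 0.46 and Ttc28 0.34. With the immature marker level added edgeR gave Prox1 0.67, Igfbpl1 0.058, Cd24a 3.15, Fnbp1l 1.56 and Ttc28 1.66, and limma gave Ier2 1.54, Prox1 0.47 and Bok 0.032. No paired analysis was possible because the cell titles carry no replicate numbers, and the cell numbers used here only count cells within a treatment.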
